A study of Rattus norvegicus with 10 samples.

Results

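Left ventricles of rats that had been acclimated to heat, deacclimated and then heated again for 2 days (reacclimated, ReAC) were compared with those of untreated control rats over all genes measured, as the mean log2 signal of the ReAC pools minus that of the control pools. The comparison used 4 of the 10 expression arrays of the study, 2 for each group. Each array carried RNA from a separate pool of 5 Sabra rats. The controls were untreated and 1 month old. The ReAC rats, 3 weeks old when the experiment began, had spent 30 days at 34 °C, then 30 days at 24 °C, then 2 days at 34 °C, and were 3 months old. The other 3 groups were rats kept for 2 days at 34 °C (AC2d, 1 month old), for 30 days at 34 °C (AC30, 2 months old), or for 30 days at 34 °C and then 30 days at 24 °C (deacclimated, DeAC, 3 months old). ReAC and control thus differed by 2 months of age and by the whole heat history, and these cannot be told apart in this comparison. DeAC was the group of the same age, and ReAC minus DeAC holds the step that came with the last 2 days of heat.

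Heat acclimation is the slow adjustment of an animal to a warm environment, and in the rat heart it is known for slower myosin, a lower metabolic cost of contraction and protection against ischaemia. After return to a cool room the adjusted state fades, and on a second exposure it returns faster than it was first built, which is called acclimation memory. Postnatal growth changes the same tissue on its own: in the young rat heart, cell division stops, matrix deposition slows and metabolism matures.

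Pools of a group lay close together, with a median gap between the 2 pools of 0.0761 log2 units in ReAC and 0.0961 in control. The control pools differed by more than 1 log2 unit for 57 genes, each of them higher in control replicate 1, against 0 genes in ReAC. Of these 57 genes, 2 were called between ReAC and control (Aox3 and Sytl2). Markers of ventricular muscle stood at a mean log2 signal between 11.78 and 11.88 on all 10 arrays. Markers of atrial muscle stood at 10.12 and 8.84 in the control pools, in order of replicate number, and fat cell markers at 8.07 and 6.64. A linear model over all 10 arrays lent each gene 1 shared spread, errors are standard errors of the log2 difference with n = 2 pools per group, and a gene was called at a limma adjusted p under 0.05.

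The largest single difference was in Cyp2e1, a cytochrome P450 that oxidises ethanol and small organic compounds. Its log2 signal was 6.73 and 6.43 in control and 9.27 and 9.32 in ReAC, a rise of 2.72 ± 0.13 or 6.57-fold (adjusted p = 1.89e-07). At the other end stood Top2a, the DNA topoisomerase of dividing cells, at 7.69 and 7.74 in control and 5.60 and 5.56 in ReAC. It fell by 2.14 ± 0.11, to 0.227 of the control signal (adjusted p = 2.66e-07). For both genes the ReAC pools lay within 0.1 log2 units of each other, and non-overlap with the control pools was part of the rule that chose them. Of 14324 genes, 1564 (10.9%) were called, 807 of them (5.63% of all genes) higher in ReAC and 757 (5.28%) lower. The median size of a called difference was 0.39 log2 units. Only 44 called genes differed by more than 1 log2 unit, 21 of them higher and 23 lower. The split depended on the scaling: 51.6% of called genes were higher after quantile normalization, 59.8% with the values as deposited, and 74.6% when each array was scaled to the same median. Without ReAC replicate 1 the count was 679, and without ReAC replicate 2 it was 665. Among 12245 probe sets without a single gene symbol, tested apart, 434 (3.54%) were called, 259 of them higher and 175 lower.

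The 12 genes with the largest rise covered several kinds of protein. Myh7, the slow myosin heavy chain, stood at 11.24 and 11.77 in control and 13.33 and 13.24 in ReAC (1.78 ± 0.11). Aox3, an aldehyde oxidase, rose by the same 1.78 ± 0.22 on the log2 scale, from control pools at 7.54 and 6.44 that were themselves over 1 log2 unit apart. Mx1, an interferon-induced antiviral GTPase, went from 5.48 and 5.60 to 7.15 and 7.16 (1.61 ± 0.15). Ankrd23 codes for an ankyrin repeat protein that binds titin in the sarcomere. It had 7.67 and 8.09 in control and 9.43 and 9.48 in ReAC (1.58 ± 0.11, adjusted p = 9.44e-07). Pbld1 rose by 1.497 ± 0.12 and Penk, the precursor of enkephalin opioid peptides, by 1.41 ± 0.09. The proteoglycan gene Omd rose by 1.34 ± 0.17, and Fkbp5, a co-chaperone of the glucocorticoid receptor, by 1.28 ± 0.12. Tceal7 rose by 1.22 ± 0.16, Gpnmb, a glycoprotein of macrophages and other cells, by 1.21 ± 0.08, and Fmo2, a flavin-containing monooxygenase, by 1.17 ± 0.08. Non-overlap of the pools was part of the rule that chose these genes.

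Among the 12 genes with the largest fall, 6 take part in cell division: Top2a, Prc1, Ndc80, Pbk, Kif4a and Cdkn3. Rrm2, a subunit of the enzyme that makes deoxynucleotides, fell by 1.38 ± 0.12. The linker histone genes H1f1 and H1f5 fell by 1.54 ± 0.10 and 1.53 ± 0.12. Outside the cell cycle, Alox15, a lipoxygenase that makes lipid mediators from arachidonic acid, stood at 8.68 and 8.57 in control and 6.69 and 6.71 in ReAC. It fell by 1.93 ± 0.11 (adjusted p = 4.23e-07). Inha, the alpha subunit of inhibin, had 8.35 and 8.16 in control and 6.58 and 6.60 in ReAC and fell by 1.67 ± 0.09. Tfrc, the transferrin receptor that brings iron into cells, had 10.03 and 10.24 in control and 8.73 and 8.78 in ReAC and fell by 1.38 ± 0.08. The calls of these 24 genes held under each alternative setting that tested them.

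**Figure D1:**
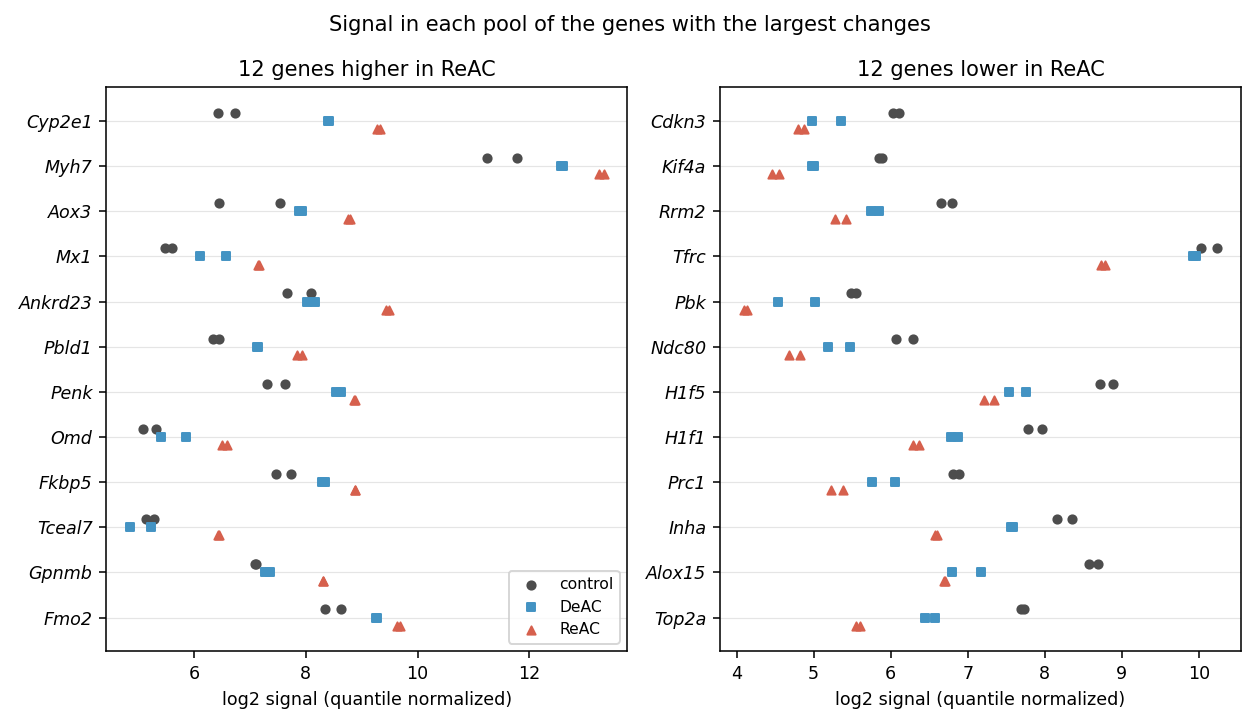
Log2 signal (quantile normalized, horizontal axis) of the 12 genes with the largest rise (left) and the 12 with the largest fall (right) in ReAC against control, with 1 point per pool for control, DeAC and ReAC. Genes were chosen among those whose control and ReAC pools did not overlap. For Ankrd23, Tceal7, Gpnmb and Tfrc the DeAC pools sit nearer to control than to ReAC. The DeAC mean is also nearer to control, by a smaller margin, for other genes such as Omd and Inha.

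**Figure D2:**
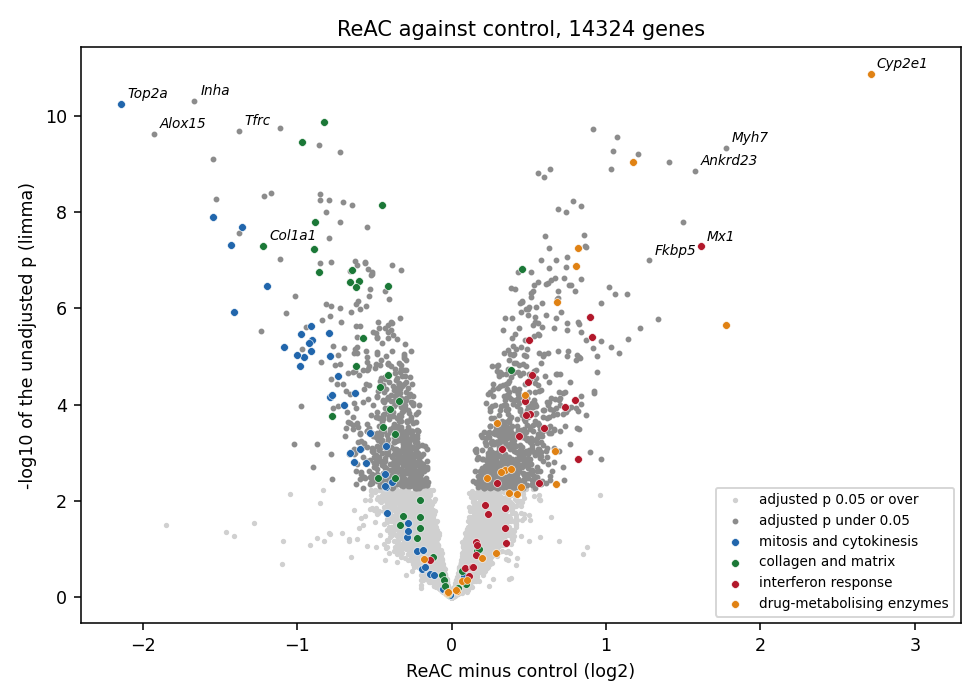
Difference between ReAC and control on the log2 scale (horizontal) against -log10 of the unadjusted limma p (vertical) for 14324 genes, with 4 gene lists in colour. Called genes of the mitosis list (blue) all lie on the left, those of the interferon list (red) and of the drug-metabolising enzymes (orange) all on the right.

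Division genes fell together. Of 46 measured genes of mitosis and cytokinesis, 32 were lower, 0 were higher and 14 were not called, with a median log2 difference of -0.63, against -0.01 over all genes and 5.28% of all genes called lower. Prc1, which bundles the microtubules of the central spindle, stood at 6.89 and 6.81 in control and 5.23 and 5.38 in ReAC (-1.55 ± 0.13, adjusted p = 4.76e-06). Ndc80, which ties chromosomes to spindle microtubules, stood at 6.29 and 6.07 and at 4.68 and 4.83 (-1.43 ± 0.13). The chromosome motor gene Kif4a stood at 5.88 and 5.85 and at 4.55 and 4.47 (-1.36 ± 0.12). These ReAC signals lay below the array medians, which ran from 5.95 to 6.10. Leaving out the 40% dimmest genes left 3 of the 32 calls. Most of the difference was already present before the last 2 days of heat: Top2a was 1.20 lower in DeAC than in control and 0.94 ± 0.11 lower again in ReAC than in DeAC. In AC2d, at the age of the controls, 30 of the 46 genes were also lower than in control, with a median of -0.65. Of 14324 genes, 267 were called lower there. In ReAC against DeAC, 5 of the 46 genes were lower, with 2.21% of all genes called lower there. That count was 3 without either AC2d replicate, 1 without DeAC replicate 2 or ReAC replicate 1, and 2 without ReAC replicate 2. In tissue pools, fewer dividing cells and less of these transcripts in each cell cannot be told apart.

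Genes of DNA replication were lower in 8 of 35 cases, against 5.28% of all genes called lower. Members called higher numbered 0, against 5.63% of all genes, and the median of the list was -0.22. Apart from Rrm2, the named members were Uhrf1, which reads hemimethylated DNA during replication (-0.78 ± 0.10), Tyms, which makes thymidylate (-0.48 ± 0.07), and the origin licensing gene Cdc6 (-0.51 ± 0.12). The count was 4 without control replicate 1 or ReAC replicate 2 and 3 without ReAC replicate 1. Cdc6 was no longer called without control replicate 1 (adjusted p = 0.0567) or without ReAC replicate 1 (adjusted p = 0.145).

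Promoters of division genes often hold a short element named CHR, for cell cycle genes homology region, through which they are known to be shut off in resting cells. The 250 bases before the annotated start, from RefSeq on the build GRCr8, are shown for Top2a at chr10:84473094-84473343 on the minus strand and Prc1 at chr1:143659231-143659480 on the plus strand, which hold CHR letters (in capitals), and for Ndc80 at chr9:118887530-118887779 on the minus strand, which holds none.
Top2a: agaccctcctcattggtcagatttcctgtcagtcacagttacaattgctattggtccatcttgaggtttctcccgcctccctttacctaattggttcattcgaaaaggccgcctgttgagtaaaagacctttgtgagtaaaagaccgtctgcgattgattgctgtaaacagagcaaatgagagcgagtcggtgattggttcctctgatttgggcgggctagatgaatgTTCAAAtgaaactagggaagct
Prc1: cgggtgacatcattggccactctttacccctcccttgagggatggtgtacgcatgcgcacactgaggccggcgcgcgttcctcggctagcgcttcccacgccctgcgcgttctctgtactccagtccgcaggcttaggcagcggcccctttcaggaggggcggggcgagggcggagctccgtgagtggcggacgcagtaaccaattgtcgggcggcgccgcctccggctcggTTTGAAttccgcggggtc
Ndc80: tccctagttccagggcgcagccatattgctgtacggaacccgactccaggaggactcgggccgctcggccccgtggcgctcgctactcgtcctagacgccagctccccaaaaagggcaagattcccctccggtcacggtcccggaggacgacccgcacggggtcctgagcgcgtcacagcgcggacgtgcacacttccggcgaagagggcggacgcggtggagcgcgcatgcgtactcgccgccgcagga
The letters searched were TTTGAA and TTTAAA on both strands. They lie 22 bases before the start in Top2a and 18 bases in Prc1. Of the 46 mitosis genes, 36 had a promoter in the table and 25 of these (69.4%) held the letters, against 25.4% of all 33469 promoters of the same length. Among the members called lower 18 of 25 held them, and among those not called 7 of 11, so the letters did not separate called from uncalled members.

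Histone genes fell in part. The linker histones H1f1 and H1f5, which close the turn of DNA on a nucleosome, were the only 2 of 6 listed that had a gene of their own on the array. H1f1 stood at 7.79 and 7.97 in control, 6.78 and 6.87 in DeAC and 6.29 and 6.37 in ReAC. H1f5 stood at 8.72 and 8.89, at 7.54 and 7.76, and at 7.34 and 7.22. Both fell in ReAC against control, and non-overlap of the pools was part of the rule that placed them among the largest falls. Of 17 core histone genes 5 were lower, against 5.28% of all genes called lower, and 12 were not called. The named ones differed by -1.11 ± 0.11 (H2ac4), -0.84 ± 0.13 (H2bc12), -0.64 ± 0.10 (H2bc18) and -0.63 ± 0.11 (H4c14). Histone genes are near copies of each other, so probe sets can share signal between them. Among 44 chromatin modifiers 1 was higher and 4 were lower, which is near the 10.9% of all genes called. The pair of H3K27 methyltransferase genes moved apart: Ezh1, the form of resting cells, rose by 0.37 ± 0.05, and Ezh2, the form of dividing cells, fell by 0.46 ± 0.10. The H3K79 methyltransferase gene Dot1l fell by 0.44 ± 0.09 and the DNA methyltransferase gene Dnmt3a by 0.35 ± 0.08. Without control replicate 2 there were 2 higher chromatin modifiers. Without ReAC replicate 1 there were 2 lower chromatin modifiers and Dot1l was not called (adjusted p = 0.0648). Without ReAC replicate 2 there was 1, and Ezh2 (adjusted p = 0.105) and Dnmt3a (adjusted p = 0.162) were not called. Dnmt3a was also not called without control replicate 2 (adjusted p = 0.11).

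Matrix genes formed the other large group that fell. Of 41 collagen and matrix genes, 23 were lower and 2 were higher, with a median of -0.37, against 5.28% of all genes called lower. Col1a1, the main chain of type I collagen, stood at 12.13 and 11.62 in control, 10.78 and 10.76 in DeAC and 10.62 and 10.69 in ReAC. It fell by 1.22 ± 0.11, to 0.429 of the control signal (adjusted p = 1.44e-05). Col3a1 stood at 11.92 and 11.69, at 10.89 and 10.89, and at 10.83 and 10.85 (-0.97 ± 0.06). Both collagens were thus at the level of DeAC, and neither was called between ReAC and DeAC (-0.12 ± 0.11 and -0.05 ± 0.06). The fibrillin gene Fbn1 fell by 0.82 ± 0.05 (adjusted p = 4.23e-07), Col5a1 by 0.88 ± 0.07 and Sparc, a collagen-binding matrix protein, by 0.45 ± 0.04. The 2 genes that rose were the small proteoglycan decorin, Dcn (0.46 ± 0.05), and fibulin 1, Fbln1 (0.39 ± 0.06). Leaving out 1 array gave 19 to 24 lower genes.

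The matrix genes did not move with all fibroblast markers. Of 16 such markers 4 were higher (Dcn, Gsn, Dpep1 and Fbln1) and 3 lower (Col1a1, Col1a2 and Cd248), and 6 were lower without control replicate 2. Over all genes 5.63% were called higher and 5.28% lower. The markers Dcn, Fbln1 and Col1a1 are also members of the matrix list, so the lists overlap. The actin-severing protein gene Gsn stood at 11.87 and 11.80 in control and 12.43 and 12.43 in ReAC (0.60 ± 0.04). The receptor gene Pdgfra, a defining fibroblast marker, stood at 9.39 and 9.29 in control and at 9.46 and 9.39 in ReAC and was not called. The summed signal of the list, as log2, was 14.40 and 14.19 in control and 14.26 and 14.27 in ReAC. Periostin, Postn, a matrix protein of activated fibroblasts, stood at 7.63 and 7.30 in control, 5.81 and 5.95 in DeAC and 7.23 and 7.03 in ReAC. Its ReAC pools lay below both control pools but it was not called against control (-0.34 ± 0.14, adjusted p = 0.158), while it rose by 1.25 ± 0.14 against DeAC (adjusted p = 0.000274). Among vessel markers, 5 of 13 endothelial genes were lower, against 5.28% of all genes called lower. They were led by the apelin receptor gene Aplnr (-0.72 ± 0.06) and Emcn (-0.38 ± 0.07). Only 2 of these 13 were lower without control replicate 2, ReAC replicate 1 or ReAC replicate 2, 3 without either AC2d replicate, and 1 after median scaling, under which Emcn was not called (adjusted p = 0.0756). Of 14 smooth muscle and pericyte markers 1 was lower, the adhesion molecule gene Mcam (-0.79 ± 0.06), and 3 were lower without either control replicate.

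In the contractile apparatus, the slow myosin rose and the fast one fell. Myh6, the fast myosin heavy chain of the adult rat ventricle, stood at 13.31 and 13.29 in control and 12.96 and 12.98 in ReAC and fell by 0.33 ± 0.03 (adjusted p = 3.16e-05). Myh6 had been level with control in DeAC (13.28 and 13.25), and the fall lay between DeAC and ReAC (-0.30 ± 0.03). Myh7 stood 1.07 above control in DeAC and rose by a further 0.71 ± 0.11 from DeAC to ReAC. Without ReAC replicate 1 that last rise was no longer called (adjusted p = 0.0599). Myh7 was also above control after 2 days (1.30) and 30 days (1.33) of first heat. Of 33 sarcomere and Z-disc genes 7 rose and 5 fell, with a median of -0.01, against 5.63% of all genes called higher and 5.28% called lower. The named members besides the myosins were Ankrd23, above, and the skeletal actin gene Acta1, which fell by 0.56 ± 0.06. The number of sarcomere genes that fell was 3 without either AC2d replicate and 2 without either ReAC replicate. Calcium cycling genes gave 1 higher and 2 lower of 24, a share near that of all genes, and 4 were lower without control replicate 2.

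Genes of potassium and pacemaker channels were higher in 8 of 22 cases and lower in 0, against 5.63% of all genes called higher. Kcnj11, the pore of the ATP-sensitive potassium channel, stood at 8.70 and 8.64 in control and 9.24 and 9.25 in ReAC (0.58 ± 0.06, adjusted p = 2.4e-05). Kcna4 rose by 0.55 ± 0.10 and Kcnip2, a subunit of the transient outward channel, by 0.43 ± 0.07. Hcn4, the pacemaker channel, had 7.32 and 7.11 in control and 7.71 and 7.74 in ReAC (0.51 ± 0.08). The count was 4 without ReAC replicate 1 and 5 without ReAC replicate 2. The list shares Kcna5 (0.45 ± 0.12) with the atrial markers, and it was not called without control replicate 1 (adjusted p = 0.172) or either ReAC replicate (adjusted p = 0.123 and 0.134).

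Drug-metabolising enzymes rose in 15 of 27 cases and fell in 0, with a median of 0.35. Over all genes 5.63% were called higher and 5.28% lower. Beside Cyp2e1, Aox3 and Fmo2, these included the sulfotransferase gene Sult1a1, at 7.92 and 7.77 in control and 8.66 and 8.68 in ReAC (0.82 ± 0.08), and the carboxylesterase gene Ces1d, at 6.77 and 6.75 and at 7.61 and 7.52 (0.80 ± 0.08). ReAC and control pools were apart in both. The count was 8 without ReAC replicate 1, 7 without ReAC replicate 2 and 9 with the 4 compared arrays fitted alone. Cyp2e1 was 1.83 above control in DeAC and rose by a further 0.89 ± 0.13 in ReAC, while after 2 and 30 days of first heat it stood 0.50 and 0.35 above control. Antioxidant genes rose in 10 of 35 cases and fell in 2, the heme oxygenase gene Hmox1 by 0.75 ± 0.09 and the glutathione transferases Gsta1 by 0.60 ± 0.09 and Gstm2 by 0.54 ± 0.09, while the glutathione peroxidase gene Gpx1 fell by 0.44 ± 0.08. Without ReAC replicate 2, 5 antioxidant genes rose, and 1 fell without either ReAC replicate.

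Fuel genes moved in different directions by pathway. Of 30 genes of the citric acid cycle and amino acid breakdown 10 were higher and 4 lower, against 5.63% and 5.28% of all genes. The named ones that rose break down branched-chain amino acids: Bcat2, which takes off the amino group, rose by 0.61 ± 0.07, and Dbt, a subunit of the dehydrogenase that follows it, by 0.41 ± 0.04. Mccc1, of leucine breakdown, rose by 0.46 ± 0.05 and Hibadh, of valine breakdown, by 0.34 ± 0.04. None of these 4 genes was called between ReAC and DeAC, with differences from -0.03 (Dbt) to 0.145 (Mccc1). Of the 4 that fell, named here after their values were seen, Pdhb, Dlat and Pdhx belong to the pyruvate dehydrogenase complex and Idh3a to the citric acid cycle. Only 6 genes of the list rose without either ReAC replicate, and 1 fell. Without control replicate 2, 2 fell. Fatty acid oxidation genes rose in 8 of 37 cases, among them the regulator Ppara (0.54 ± 0.07), the fatty acid carrier Slc27a1 (0.48 ± 0.06) and the fat-splitting lipase Pnpla2 (0.40 ± 0.06). Only 5 rose without either ReAC replicate. The mitochondrial carrier Ucp2 was the 1 member that fell, from 10.89 and 10.96 to 10.22 and 10.19 (-0.72 ± 0.05, adjusted p = 5.65e-07), and 4 fell without control replicate 1.

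Glycolysis and glycogen genes were lower in 8 of 32 cases and higher in 3, against 5.28% of all genes called lower and 5.63% called higher. Pfkfb2, whose product sets the pace of phosphofructokinase in the heart, fell by 0.49 ± 0.07, Pgk1 by 0.30 ± 0.04 and Eno1 by 0.22 ± 0.04, while the glucose transporter gene Slc2a1 rose by 0.49 ± 0.09. The fall in glycolysis was counted in 2 genes without ReAC replicate 1, where Eno1 had an adjusted p of 0.0501, and in 5 without ReAC replicate 2, where no gene of the list was called higher and Slc2a1 had an adjusted p of 0.068. Oxidative phosphorylation genes were lower in 8 of 76 cases and higher in 1. Both directions together were near the 10.9% of all genes called. By direction the calls leaned to lower genes, against 5.28% of all genes called lower and 5.63% called higher. The lower ones had small differences, such as Cox6a1 (-0.30 ± 0.05) and Atp5mc3 (-0.26 ± 0.04). After median scaling 0 of the 76 were lower (Cox6a1 with an adjusted p of 0.0861 and Atp5mc3 of 0.167), so these calls depended on the scaling. The counts were 3 without control replicate 2 or ReAC replicate 1 and 2 without ReAC replicate 2. Pdk4, which blocks the entry of pyruvate into the citric acid cycle, was not called (0.24 ± 0.08, adjusted p = 0.0608). It was called higher after median scaling or without the dimmest genes (adjusted p = 0.0489 in both), with the compared arrays alone (0.0367) and without either AC30 replicate (0.00547 and 0.00554).

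**Figure D3:**
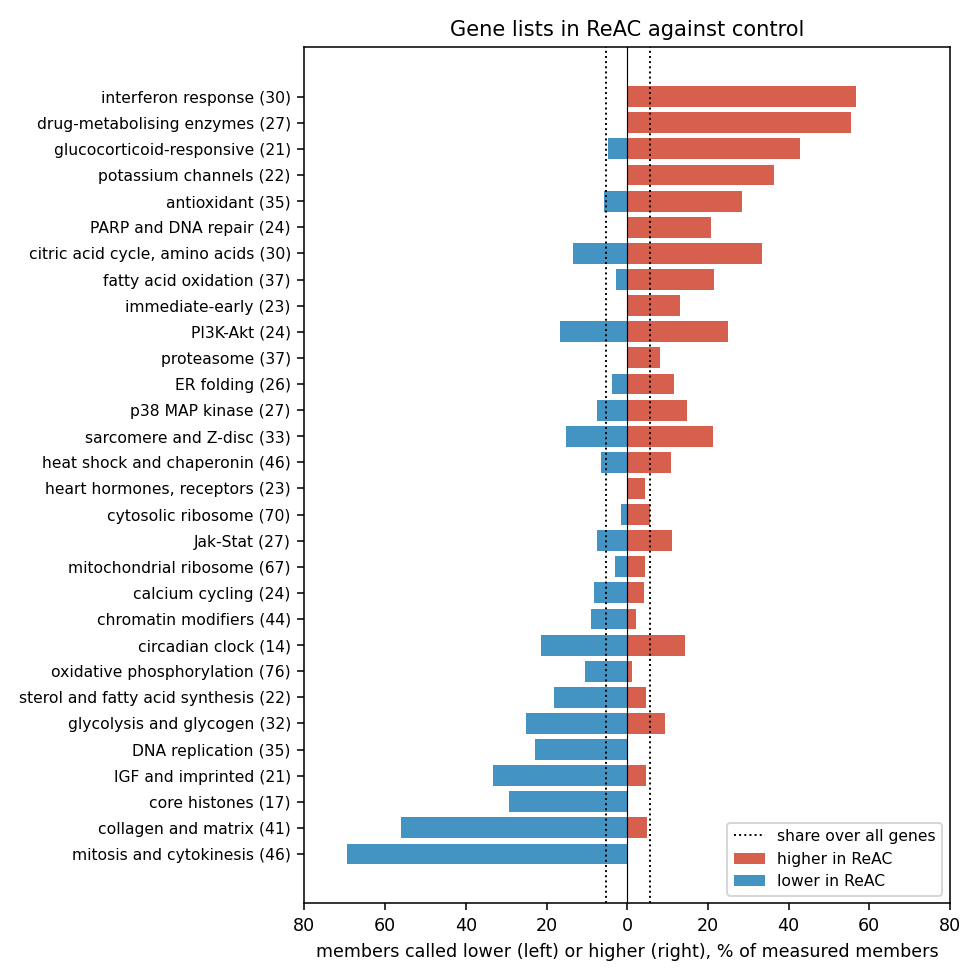
Share of measured members called higher (red, right) or lower (blue, left) in ReAC against control for the pathway lists, with the number of measured members in brackets and the shares over all genes as dotted lines. The linker histones, of which 2 were measured, are not drawn. Lists of interferon response and drug-metabolising enzymes reach farthest to the right, and mitosis and matrix lists farthest to the left.

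Interferon-responsive genes rose in 17 of 30 cases and fell in 0, with a median of 0.40, against 5.63% of all genes called higher. Irf7, the transcription factor that drives the type I interferon loop, stood at 6.81 and 6.89 in control, 7.40 and 7.26 in DeAC and 7.75 and 7.73 in ReAC. It rose by 0.90 ± 0.11 against control (adjusted p = 0.000157). Usp18, which removes ISG15 from proteins, stood at 7.07 and 6.93, at 7.39 and 7.64, and at 7.88 and 7.95 (0.91 ± 0.12). Mx2 rose by 0.50 ± 0.07. For these 3 genes the DeAC pools lay between control and ReAC. Leaving out 1 array gave 12 to 17 higher genes. Against DeAC, 10 of the 30 were higher, Mx1 by 0.82 ± 0.15, with 1.7% of all genes called higher there. This count was not stable: it was 6 with the values as deposited and 3 after median scaling. It fell without any 1 of the DeAC or ReAC pools, which leaves 1 pool in that group, and it rose without control replicate 1. The count over all genes against DeAC fell and rose with it. Mx1 was not called against DeAC without DeAC replicate 1 (adjusted p = 0.0813), ReAC replicate 1 (0.0798) or ReAC replicate 2 (0.0791).

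The element known to carry the interferon signal to a gene is the interferon-stimulated response element, ISRE. The 250 bases before the start (RefSeq, GRCr8) are shown for Irf7 at chr1:205800024-205800273, which holds the letters in capitals, and for Mx1 at chr11:50294607-50294856, which holds none, both on the minus strand.
Irf7: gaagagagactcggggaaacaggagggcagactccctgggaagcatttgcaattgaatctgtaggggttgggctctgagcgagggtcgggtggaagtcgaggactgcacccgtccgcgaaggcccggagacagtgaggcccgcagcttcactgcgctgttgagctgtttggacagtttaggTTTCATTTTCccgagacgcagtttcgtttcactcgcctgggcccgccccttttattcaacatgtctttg
Mx1: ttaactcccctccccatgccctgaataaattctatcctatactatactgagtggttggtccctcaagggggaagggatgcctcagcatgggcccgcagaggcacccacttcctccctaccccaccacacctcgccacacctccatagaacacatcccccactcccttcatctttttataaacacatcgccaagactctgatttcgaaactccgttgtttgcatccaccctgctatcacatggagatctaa
The letters searched on both strands were GAAA, any pair of bases and GAAA again, and this search was added after the interferon counts were known. They begin 69 bases before the start in Irf7. Of 22 interferon genes whose promoter was given, 13 (59.1%) held them, against 3.41% of all promoters. They were present in 6 of 11 members called higher and in 7 of 11 not called.

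Markers of immune cells rose beside the interferon genes. Of 24 macrophage markers 17 were higher and 0 lower, with a median of 0.45, against 5.63% of all genes called higher. The MHC class II gene RT1-Da stood at 8.51 and 8.64 in control, 8.98 and 9.09 in DeAC and 9.39 and 9.43 in ReAC (0.84 ± 0.07, adjusted p = 3.21e-06). The lysozyme gene Lyz2 stood at 7.99 and 8.15, at 8.47 and 8.51, and at 8.86 and 8.99 (0.86 ± 0.08). In both, DeAC lay between control and ReAC, with no overlap of pools. The scavenger receptor gene Cd163 of resident macrophages rose by 0.75 ± 0.10 and the complement gene C1qa by 0.69 ± 0.10. The summed macrophage signal, as log2, was 12.37 and 12.47 in control and 12.87 and 12.89 in ReAC. The count was 10 without ReAC replicate 1 and 11 without ReAC replicate 2. Of 20 lymphocyte markers 8 were higher and 0 lower, with a summed log2 signal of 10.10 and 10.18 in control and 10.41 and 10.47 in ReAC. They were dim: the T cell receptor chain Cd3g stood at 4.11 and 4.02 in control and 4.86 and 4.92 in ReAC (0.83 ± 0.12). The lymphocyte count was 5 without either control replicate, 3 without ReAC replicate 1 and 1 without ReAC replicate 2. The part of immune cells in the interferon result was not tested.

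Genes that glucocorticoid hormones are known to switch on were higher in 9 of 21 cases and lower in 1. Over all genes 5.63% were called higher and 5.28% lower. Fkbp5 stood at 7.46 and 7.73 in control, 8.28 and 8.34 in DeAC and 8.88 and 8.88 in ReAC. Zbtb16, a zinc finger repressor, stood at 9.02 and 9.07, at 9.88 and 9.82, and at 9.95 and 9.97 (0.91 ± 0.05 against control, adjusted p = 4.23e-07). The heart transcription factor gene Klf15 rose by 0.59 ± 0.09. Fkbp5 rose again from DeAC to ReAC and Zbtb16 was not called there (0.11 ± 0.05). That step of Fkbp5 (0.56 ± 0.12) was not called without any 1 of the DeAC or ReAC pools (adjusted p from 0.113 to 0.159). Without ReAC replicate 2, 5 genes of the list were higher against control, and 0 were lower without control replicate 2 or either ReAC replicate. Clock genes gave 2 higher (Per2 and Tef) and 3 lower (Bmal1, Npas2 and Cry1) of 14. Of these 14 genes 4 lay over 1 log2 unit apart between the control pools, and 7 were higher without control replicate 1. The number higher was 1 without control replicate 2 or any 1 of the AC2d and ReAC pools, and 0 were lower without either ReAC replicate. The sources used here do not give the hour at which the hearts were taken.

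Heat shock genes were called in both directions. Of 46 measured chaperone and heat shock genes 5 were higher and 3 lower, with a median of -0.003, against 5.63% of all genes called higher and 5.28% called lower. Hspa8, the constitutive HSP70, stood at 13.24 and 13.16 in control and 13.20 and 13.21 in ReAC. Hsp90aa1 stood at 10.63 and 10.58 and at 10.61 and 10.60. The ReAC pools of both genes lay between the control pools, and neither gene was called (adjusted p = 0.993 for Hspa8 and 0.994 for Hsp90aa1). Hsp90ab1 (0.11 ± 0.04), Hsph1 (0.05 ± 0.08), Hspb1 (0.13 ± 0.05), Dnajb1 (0.19 ± 0.08), Hspd1 (-0.17 ± 0.06) and the endoplasmic reticulum chaperone gene Hspa5 (-0.02 ± 0.04) were not called either. Hspd1 was called lower without either AC30 replicate (adjusted p = 0.0242 and 0.0241), and Hsp90ab1 was called higher after median scaling (0.0397). The genes that rose were Dnajb4 (0.45 ± 0.05), the co-chaperone Bag3 (0.30 ± 0.05) and its partner Hspb8 (0.27 ± 0.04), with Hspa4l (adjusted p = 0.0375) and Hsf1 (adjusted p = 0.0477). Those that fell were Dnaja4 (-0.28 ± 0.07), Hspe1 and Fkbp4. Bag3 stood at 10.08 and 10.14 in control, 10.27 and 10.30 in DeAC and 10.42 and 10.41 in ReAC, and Hspb8 at 10.66 and 10.69, at 10.97 and 10.96, and at 10.95 and 10.94. ReAC pools were thus above control for both. The number higher was 3 without control replicate 2 or any 1 of the DeAC and ReAC pools, and the number lower was 1 without control replicate 2 and 0 without either ReAC replicate, where Dnaja4 had adjusted p = 0.0672 and 0.137 (0.142 without control replicate 2). The inducible HSP70 genes Hspa1a and Hspa1b could not be read, since their probe set also carries the symbol Hspa1l.

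Heat shock factor 1 is known to bind repeats of nGAAn. The 250 bases before the start (RefSeq, GRCr8, both on the plus strand) are shown for the 2 heat shock genes called higher that held such letters, Bag3 at chr1:192533210-192533459 and Hspb8 at chr12:45837058-45837307, with the match in capitals.
Bag3: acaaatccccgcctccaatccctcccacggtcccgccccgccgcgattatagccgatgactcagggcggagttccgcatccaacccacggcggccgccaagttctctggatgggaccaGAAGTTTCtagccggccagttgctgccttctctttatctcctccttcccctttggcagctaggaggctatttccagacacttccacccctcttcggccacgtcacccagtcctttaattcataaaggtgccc
Hspb8: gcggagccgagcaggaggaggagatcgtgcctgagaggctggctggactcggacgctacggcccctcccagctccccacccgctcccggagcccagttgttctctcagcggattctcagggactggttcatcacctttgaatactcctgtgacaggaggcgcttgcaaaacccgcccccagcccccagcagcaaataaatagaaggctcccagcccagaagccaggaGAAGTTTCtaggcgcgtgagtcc
The letters searched were GAANNTTC and TTCNNGAA, which begin 132 bases before the start in Bag3 and 23 bases in Hspb8. Of 39 heat shock genes with a promoter 18 (46.2%) held them, against 13.6% of all promoters. Of the members called higher that had a promoter 2 of 3 held them, and of all other members with a promoter 16 of 36.

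p38 MAP kinase, Jak-Stat, Akt and PARP pathways relay stress, cytokine, growth factor and DNA damage signals, and they were among those the study was concerned with. Mapk14, which codes for p38 alpha, was not called against control (0.14 ± 0.08, adjusted p = 0.269), with 8.63 and 8.61 in control and 8.74 and 8.80 in ReAC. Mapk12, which codes for p38 gamma, stood at 8.09 and 7.93 in control, 8.27 and 8.18 in DeAC and 8.72 and 8.78 in ReAC. It rose by 0.74 ± 0.07 against control (adjusted p = 2.91e-05) and by 0.53 ± 0.07 against DeAC (adjusted p = 0.00169). Of 27 genes of the p38 list 4 were higher and 2 lower, against 5.63% of all genes called higher and 5.28% called lower. Gadd45b, a stress sensor upstream of p38, rose by 0.53 ± 0.10, and the p38 phosphatase gene Dusp10 fell by 0.48 ± 0.09. Only 1 gene of the list was lower without control replicate 2 or ReAC replicate 1.

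Stat3 was not called (-0.18 ± 0.06, adjusted p = 0.055). It was called without control replicate 1 (adjusted p = 0.022). In the Jak-Stat list 3 of 27 were higher and 2 lower, against 5.63% of all genes called higher and 5.28% called lower. Jak2, a kinase of cytokine and growth hormone receptors, rose by 0.43 ± 0.07, and Socs2, an inhibitor of growth hormone signalling, fell by 0.41 ± 0.08. Only 1 gene of the list was higher without control replicate 2, either AC2d replicate or either ReAC replicate. Only 1 was lower without any 1 of the AC2d, DeAC or ReAC pools. Akt1 stood at 10.34 and 10.43 in control, 10.48 and 10.43 in DeAC and 10.14 and 10.08 in ReAC and fell by 0.27 ± 0.06 (adjusted p = 0.0119). Its call was lost without control replicate 2 (adjusted p = 0.0636), without ReAC replicate 2 (adjusted p = 0.112) and under median scaling (adjusted p = 0.204). In the list of PI3 kinase and Akt signalling 6 of 24 rose, among them the regulatory subunit gene Pik3r1 (0.51 ± 0.05) and the stress-induced inhibitor of mTOR signalling Sesn1 (0.58 ± 0.07), and 4 fell. Only 3 rose without ReAC replicate 2, and the number that fell was 1 without control replicate 1 or ReAC replicate 1 and 0 without ReAC replicate 2.

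Parp1, which codes for the polymerase that marks DNA breaks with ADP-ribose, was not called against control (-0.13 ± 0.05, adjusted p = 0.101). It stood at 9.76 and 9.74 in control, 9.91 and 9.86 in DeAC and 9.64 and 9.61 in ReAC, and it fell by 0.26 ± 0.05 between DeAC and ReAC (adjusted p = 0.00866). That fall was not called without DeAC replicate 1 (adjusted p = 0.0807), ReAC replicate 1 (0.0711) or ReAC replicate 2 (0.0989). The related gene Parp3 rose by 0.46 ± 0.08 against control, and Lig4, a ligase that joins broken ends, by 0.69 ± 0.08 (adjusted p = 6.01e-05). In the list of PARP and DNA repair genes 5 of 24 were higher and 0 lower, against 5.63% of all genes called higher. The count was 3 without either control or either AC2d replicate and 2 without either ReAC replicate.

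Against DeAC, the group of the same age, 560 genes (3.91%) were called, 244 of them (1.7% of all genes) higher in ReAC and 316 (2.21%) lower. The count ranged from 98 without ReAC replicate 1 to 868 without control replicate 1, which changes only the shared spread. It was 132 without ReAC replicate 2, 202 and 177 without DeAC replicates 1 and 2, 362 and 359 without the AC2d replicates, and 863 without control replicate 2. Genes made mainly in the atrium led the rise. Sln, sarcolipin, a small inhibitor of the calcium pump, stood at 5.79 and 5.73 in DeAC and 11.39 and 11.49 in ReAC (5.68 ± 0.53, adjusted p = 0.000112). Bmp10, an atrial growth factor, stood at 4.44 and 4.67 and at 9.57 and 9.71 (5.09 ± 0.43). The atrial myosin light chain gene Myl7 rose by 4.31 ± 0.43, the natriuretic peptide gene Nppa by 3.25 ± 0.28, the myosin-binding protein gene Mybphl by 3.09 ± 0.46 and the hepcidin gene Hamp by 2.82 ± 0.48. Hamp was not called without any 1 of the DeAC or ReAC pools (adjusted p from 0.0528 to 0.0711). In DeAC these 6 genes were the lowest of the 5 groups.

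The same atrial genes showed no called difference from control. The control pools lay far apart: Sln had control signals of 11.94 and 9.23, on both sides of ReAC. Without control replicate 1 each of these 6 genes and Rxfp1 was called higher in ReAC than in control, and without control replicate 2 the sign turned. The mean log2 signal of 13 atrial markers was 7.80 and 7.83 in DeAC and 9.80 and 9.81 in ReAC, and their summed signal, as log2, was 12.94 and 12.94 in DeAC, 14.57 and 14.59 in ReAC and 14.97 and 13.59 in control. Of these markers 7 were higher in ReAC than in DeAC, 11 without either control replicate. Mesothelial markers, another tissue of the heart surface, were higher in 4 of 11 cases against DeAC, in 2 without either DeAC replicate and in 1 without either ReAC replicate. Over all genes, 1.7% were called higher in ReAC than in DeAC. The part of atrial tissue in the left ventricle samples in these marker differences was not tested.

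**Figure D4:**
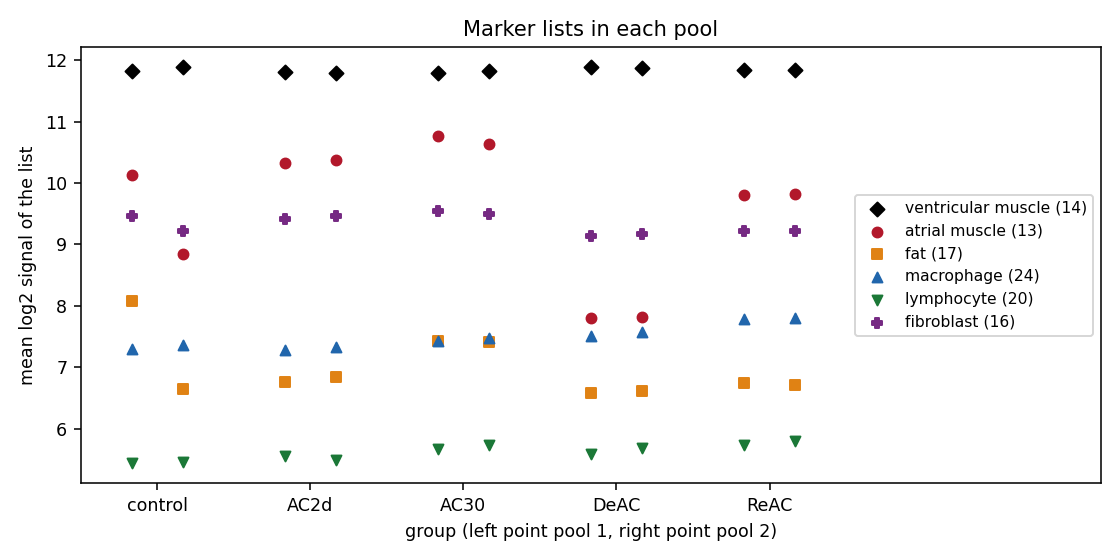
Mean log2 signal (vertical axis) of 6 cell type marker lists in each of the 10 pools, with the number of measured markers in brackets. Ventricular markers are level, atrial markers are lowest in the DeAC pools and differ between the control pools, fat markers are highest in control replicate 1, and macrophage and lymphocyte markers are higher in the ReAC pools than in the control pools.

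Other genes were also higher in ReAC than in DeAC. Sfrp2, a secreted Wnt modulator, stood at 5.68 and 5.78 in DeAC and 7.21 and 7.12 in ReAC (1.43 ± 0.15, adjusted p = 0.000182). Rxfp1, the relaxin receptor, rose by 1.42 ± 0.33 and was not called without either AC2d replicate (adjusted p = 0.0554) or any 1 of the DeAC or ReAC pools. Ankrd23 rose by 1.37 ± 0.11 (adjusted p = 2.76e-05), Tceal7 by 1.40 ± 0.16 and Gpnmb by 0.99 ± 0.08, and these 3 genes had been within 0.22 log2 units of control in DeAC. Their difference from control thus lay mostly between DeAC and ReAC. Rxfp1 turned sign against control with the control pool left out, as the atrial genes did, from -0.40 to 1.24. Sfrp2 ranged from 0.65 to 1.24 against control over the alternative settings. The part of atrial tissue in the values of Rxfp1 and Sfrp2 was not tested.

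The 8 genes with the largest fall against DeAC were Pnpla3, Ucp3, Tfrc, Bdh1, Inha, Ephx2, Top2a and Sgms2. Pnpla3, a lipid droplet enzyme, stood at 7.32 and 7.59 in DeAC and 6.13 and 6.19 in ReAC (-1.30 ± 0.12, adjusted p = 0.00012). Ucp3, the uncoupling protein of muscle that follows fatty acid supply, stood at 8.74 and 8.90 and at 7.51 and 7.75 (-1.19 ± 0.12). Bdh1, the first enzyme of ketone body use, fell by 1.02 ± 0.11, and Ephx2, which hydrolyses epoxides of fatty acids, by 0.97 ± 0.09. These 4 genes were higher in DeAC than in control, by 0.68, 0.84, 0.89 and 1.04, and Ucp3, Bdh1 and Ephx2 had no called difference between ReAC and control. Ucp3 was called lower than control without control replicate 1 (-0.53, adjusted p = 0.00752). Their DeAC pools enter both steps with opposite sign, and the 2 steps are not independent. Sgms2, a sphingomyelin synthase, fell by 0.93 ± 0.15 and was not called without DeAC replicate 2 (adjusted p = 0.0546) or ReAC replicate 1 (adjusted p = 0.0757). Tfrc fell by 1.19 ± 0.08, Inha by 0.99 ± 0.09 and Top2a by 0.94 ± 0.11. For Tfrc nearly the whole difference from control belonged to this step, since DeAC stood at 9.93 and 9.96. Fatty acid oxidation genes were lower in 8 of 37 cases and higher in 0, against 2.21% of all genes called lower in ReAC than in DeAC. That count was 5 without either AC2d replicate, 14 without any 1 of the control or AC30 pools, 3 without DeAC replicate 1 and 2 without DeAC replicate 2 or either ReAC replicate.

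Whether the second 2 days of heat did the same as the first was tested as the difference of the 2 responses, ReAC minus DeAC less AC2d minus control. Of 14324 genes 43 (0.3%) were called, 32 of them (0.223%) with a more positive second response and 11 (0.0768%) with a more negative one. The first response was measured at 1 month of age and the second at 3 months, and age cannot be told apart from order. The count was 118 and 198 without control replicates 1 and 2 and between 6 and 14 without any 1 of the AC2d, DeAC or ReAC pools. Ankrd23 had a first response of -0.22 and a second of 1.37, a difference of 1.60 (adjusted p = 0.0004). Gpnmb had -0.23 and 0.99, a difference of 1.22 (adjusted p = 0.0004), and Tceal7 had -0.01 and 1.40. Postn had -0.34 and 1.25. These 4 genes rose in the second heat and had a response between -0.34 and -0.01 in the first.

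Genes with a weaker or opposite second response included the imprinted noncoding RNA H19, which stood 1.78 above control after the first 2 days and rose by 0.54 ± 0.09 from DeAC to ReAC (difference -1.23, adjusted p = 0.0004). Without ReAC replicate 1 that second rise was not called (adjusted p = 0.0523). Myo16, an unconventional myosin, had 0.28 and -0.75, and the T-type calcium channel gene Cacna1h had 0.43 and -0.40. H1f5 differed by -1.49 over the first heat and by -0.37 over the second, and Uhrf1 by -0.96 and -0.12. Over the 46 genes of the mitosis list the median difference of the responses was 0.48, with 1 gene called more positive in the second and 45 not called. Their signals in DeAC were already below those of control.

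**Figure D5:**
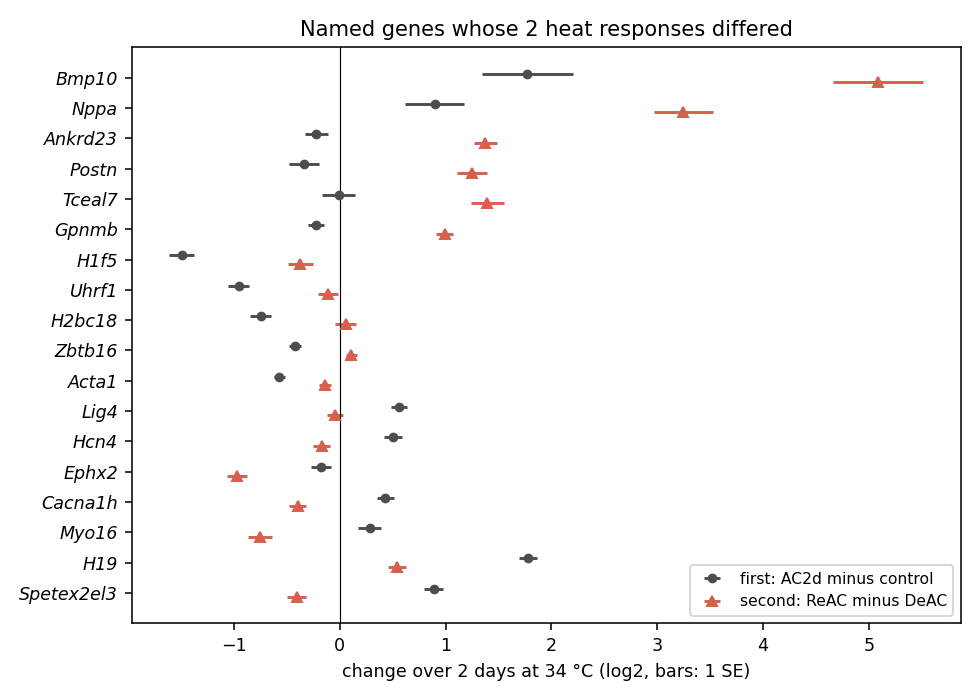
Log2 change (horizontal axis, bars 1 standard error) over the first 2 days at 34 °C (AC2d minus control, grey circles) and over the second (ReAC minus DeAC, red triangles) for the named genes whose 2 responses differed at an adjusted p under 0.05. Ankrd23, Postn, Tceal7 and Gpnmb are among the genes that lie right of 0 in the second response only. Spetex2el3, Myo16 and Cacna1h are among those that lie right of 0 in the first and left of 0 in the second.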

How the data were processed

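RNA of 10 left ventricle pools was labelled with biotin and hybridised to Affymetrix arrays, 1 per pool, per the labels. The deposited values are log2 signals per probe set. The sources used here do not say how the authors summarised and normalized them. The authors' deposited table holds a score, a signed linear fold of each heat group over control. Of 27342 probe sets, 15097 had 1 symbol in the platform annotation, 323 had several and 11922 had none. The IDs of 15067 matched RefSeq genes, and 0 value columns were left unused.

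The log2 values were quantile normalized, the brightest probe set was kept for each of 14324 genes (499 had several), and limma 3.58.1 in R 4.3.3 fitted 1 mean per group to all 10 arrays, with 5 residual and 8.3 prior degrees of freedom and a mean-variance trend. Genes were called at a Benjamini-Hochberg adjusted p under 0.05 over all genes. Separate pools of animals are the replicates. The number of arrays limits the precision. On simulated data for ReAC against control (14324 genes, 200 changed, 5 runs) 66% of genes shifted by 0.5 log2 units were found and 96.6% of those shifted by 1, and 4.53% of calls were false. The simulated noise was normal and drawn for each gene separately. It leaves out shifts shared by many genes, such as those between the control pools, so these rates hold for the simulated setting only.

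Genes were named by rule: up to 12 per direction with the largest change among called genes whose pools did not overlap (8 against DeAC, 4 for the difference of heat responses), up to 4 per list with the smallest p, and a fixed set of genes. The comparison and all gene lists were chosen with earlier results of these data known. Shared pool numbers did not pair the arrays: deviations from group means correlated between -0.0772 and 0.21. Alternatives were no further normalization, median scaling, no trend, leaving out the 40% dimmest genes, averaging probe sets per gene, all probe sets, the compared groups alone, the pool number as a block, a threshold of 0.01 and leaving out each array. Promoter sequences and their coordinates are from RefSeq, build GRCr8.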

Additional observations from a re-analysis of the deposited data

Results flagged for a closer look

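The second response to 2 days of heat (ReAC minus DeAC) differed from the first (AC2d minus control) for 18 named genes, by the limma test of the difference itself at an adjusted p under 0.05. More positive in the second were Ankrd23 by 1.6 log2 units, Postn by 1.59, Tceal7 by 1.41, Gpnmb by 1.22, the linker histone H1f5 by 1.12, Uhrf1 by 0.84, the histone H2bc18 by 0.8, Zbtb16 by 0.53 and Acta1 by 0.43. The atrial genes Bmp10 and Nppa were more positive by 3.32 and 2.35, and their control pools differed by more than 1 log2 unit. More negative in the second were Spetex2el3 by -1.3, H19 by -1.23, Myo16 by -1.03, Cacna1h by -0.83, Ephx2 by -0.8, Hcn4 by -0.68 and Lig4 by -0.61. For H1f5, Uhrf1 and H2bc18 the first response was negative (-1.49, -0.96 and -0.75) and the second lay between -0.37 and 0.06. Zbtb16 was below control after the first 2 days (-0.42) and 0.11 above DeAC after the second. Without the AC2d, DeAC or ReAC pools, 1 at a time, between 6 and 14 genes in all were called in this test, and age differs between the 2 exposures.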

How the results depend on the processing

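Of the named genes between ReAC and control, 7 turned direction and were called in the new one, each without control replicate 2: Sln to -0.50, Bmp10 to -0.84, Myl7 to -0.73, Nppa to -0.29, Mybphl to -0.78, Hamp to -0.36 and Rxfp1 to -0.40. Without control replicate 1 they stood at 2.21, 1.33, 1.496, 1.14, 1.53, 2.11 and 1.24 in the same order, the other end of their range. Sgms2, Hspa8, Hsp90aa1, Hsph1 and Hspa5 changed sign under other settings without a call on either side. Ucp1 ranged from -3.81 to 0.11 and Adipoq from -1.89 to 0.15. Both were called lower without control replicate 2, where 1 control pool was left. Counts of called genes in ReAC against control were 744 (389 higher, 355 lower) at a threshold of 0.01. The lower count was 339 after median scaling and 499 without the trend. With 1 array left out it ranged from 665 to 1713 in all, from 339 to 878 higher and from 320 to 835 lower. Against DeAC the count was 365 as deposited (194 lower), 213 after median scaling (103 higher, 110 lower), 160 without the trend (80 and 80), 1002 with the compared groups alone (471 and 531) and 173 at 0.01 (78 and 95). With 1 array left out it ranged from 98 to 868 in all, from 48 to 411 higher and from 50 to 457 lower. For the difference of heat responses it was 28 as deposited (21 and 7), 21 after median scaling (15 and 6), 13 without the trend (7 and 6), 159 over all probe sets (120 lower) and 8 at 0.01 (4 and 4). With 1 array left out it ranged from 6 to 198 in all, from 3 to 151 higher and from 3 to 47 lower. With the pool number as a replicate block the 3 counts were 1600, 595 and 52, so no count moved by over 1.5 times. Under the block Ucp3 (adjusted p = 0.00924) and Hspd1 (0.0422) were called lower in ReAC than in control. The causes of these shifts were not tested, except that leaving out an array leaves fewer samples. Over the other alternatives for single named genes between ReAC and control, 1145 values stayed on their side of the threshold, 94 lost the call and 10 gained it. With 1 array left out, 1630 stayed on it, 158 lost the call and 15 gained it. Probe sets below the array median limit what can be said of dim genes, of which the mitosis list holds many.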

Other observations

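Growth-linked imprinted genes and IGF binding proteins leaned lower in ReAC than in control, with 7 of 21 lower and 1 higher (4 lower without ReAC replicate 1; 0 higher without either ReAC replicate and 2 without control replicate 1). Mest, an imprinted gene of growing mesoderm, fell by 0.97 ± 0.14, the noncoding RNA Meg3 by 0.90, and Igfbp5, a matrix-bound IGF binding protein, by 0.69 ± 0.10, while H19 was not called (0.09). Sterol and fat synthesis genes gave 4 lower and 1 higher of 22: the squalene synthase gene Fdft1 rose by 0.79 ± 0.06 and the next enzyme of the pathway, Sqle, fell by 0.62. No gene of that list was lower without ReAC replicate 1 and 2 were without ReAC replicate 2, and 2 were higher without either control replicate. Among folding genes of the endoplasmic reticulum, 3 of 26 were higher and 1 lower, Herpud1, which helps to degrade misfolded proteins, by 0.63 ± 0.06 (1 was higher without control replicate 2 or either ReAC replicate, and 2 were lower without either control replicate). Of 37 proteasome genes 3 were higher, near the 5.63% of all genes called higher, and 0 were lower, against 5.28% called lower. The immunoproteasome subunit genes Psmb8 (0.44) and Psmb9 (0.52) were among the 3. That count was 1 without control replicate 1 or either ReAC replicate.

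The authors' deposited table lists 651 probe sets, 364 of them higher and 287 lower in ReAC than in control, with signed folds between -4.47 and 6.59. The log2 of the folds in the authors' deposited table differed from the deposited group means by at most 0.0395. Of these probe sets, 402 were called when limma was run over all probe sets, where 1945 of 27342 were called. The folds come from the same arrays, and 405 of the 651 probe sets had a fold of at least 1.5 in either direction. The 402 calls are therefore not independent of the authors' table.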
